A study of Mus musculus with 8 samples.

Results

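The synaptophysin and synaptogyrin family was followed across 8 libraries of RNA bound to tagged ribosomes in mouse hippocampus. It comprises the physins Syp, Synpr, Sypl and Sypl2 and the gyrins Syngr1, Syngr2 and Syngr3. The members were taken by name, by matching the Ensembl identifiers of the count table to GENCODE vM21 symbols, and all 7 were found among 39017 genes. Syp was chosen because its counts in these libraries were already known to be higher in the knockout, and the other members because they are its relatives. Differences between the groups in the members are therefore given as descriptions, with no p-value. The number of members called is set once beside the background and supports nothing, and the tests below concern levels between genes and genes outside the family.

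Translating ribosome affinity purification (TRAP) isolates mRNA on ribosomes of chosen cells. Here mice that carried CCK cre and an L10-EGFP transgene supplied the tagged ribosomes, so the tag marks cells in which the Cck promoter has been active at any time in life, which in hippocampus means CCK interneurons and also many excitatory neurons. The 5 conditional knockout (cKO) libraries came from such mice with SMARCA3 fl/fl, in which Cre removes the floxed part of Hltf, the gene for the chromatin remodeller SMARCA3. Littermates that were not SMARCA3 fl/fl supplied the 3 wild-type (WT) libraries, and each library pooled 4 hippocampi. Strain, age and sex, and whether the controls carried a single floxed copy, are not given in the sources used here. Nothing states how the pools relate, so p-values measure the spread between these pools, which may be technical in part.

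Means are given ± SD over the 3 WT or the 5 cKO libraries unless another n is stated. Total counts ran from 31760155 to 61823651 per library. Hltf was at 8.39 to 13.7 CPM (counts scaled to a common library total, with factors from the trimmed mean method) in WT and at 2.83 to 5.1 CPM in cKO 1 to 4. The library labelled cKO 5 held 11.4 CPM of Hltf, within the WT range and against its label, and where leaving it out moved a printed difference by over 1.5 times the value without it is given. Snap25, a neuronal SNARE gene, was at 14441 to 21583 CPM and Cck, the driver gene, at 414.5 to 837.3 CPM. Both were thus detected in every library, but neither value identifies the tissue. Enrichment of the labelled cells cannot be read from them, since all 8 libraries are of bound RNA. Xist reached 0.511 CPM at most and Ddx3y, a Y-linked gene, at least 16.5 CPM in all 8 libraries, values given because Syp lies on the X chromosome.

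Physins and gyrins are tetraspan membrane proteins with a shared MARVEL fold, and several are major components of small vesicles. Synaptophysin, the product of Syp, is among the most abundant membrane proteins of synaptic vesicles and binds synaptobrevin, whose retrieval after fusion it assists. Synaptoporin, from Synpr, is its closest relative and is known from the mossy fibre terminals of dentate granule cells and from some interneurons. Pantophysin, from Sypl, and cellugyrin, from Syngr2, occur on vesicles in many tissues, mitsugumin-29, from Sypl2, belongs to skeletal muscle membranes, and the proteins of Syngr1 and Syngr3 are carried on synaptic vesicles of neurons.

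The promoters of the physins Syp and Synpr are shown because these genes gave the contrast on which the results turn, a difference between groups in one and a difference between pools in the other. The windows cover 250 bases before to 50 bases after the RefSeq start (GRCm38.p6, the mm10 sequence), on the plus strand at chrX:7638330-7638629 and chr14:13284530-13284829, and capitals mark GGGCGG read on either strand.
Syp: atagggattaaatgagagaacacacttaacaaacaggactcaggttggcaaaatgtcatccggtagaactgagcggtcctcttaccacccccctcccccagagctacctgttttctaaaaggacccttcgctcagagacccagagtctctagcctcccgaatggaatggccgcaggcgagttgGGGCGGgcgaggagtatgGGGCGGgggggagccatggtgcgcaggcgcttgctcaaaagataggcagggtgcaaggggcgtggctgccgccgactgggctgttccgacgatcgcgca
Synpr: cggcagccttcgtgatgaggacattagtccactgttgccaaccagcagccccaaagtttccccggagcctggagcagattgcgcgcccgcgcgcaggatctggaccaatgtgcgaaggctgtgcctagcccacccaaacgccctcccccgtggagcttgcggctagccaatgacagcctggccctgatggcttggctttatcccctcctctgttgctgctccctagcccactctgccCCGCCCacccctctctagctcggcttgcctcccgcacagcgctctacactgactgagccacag
The Syp window held 2 matches to GGGCGG and the Synpr window 1. In RefSeq windows of that length, 35.7% of 32851 held at least 1 match. Neither window held TATAAA on either strand, which 13.6% of all windows do. CCAAT, read on either strand, occurred 2 times in the Synpr window and 0 times in that of Syp, and in 37.4% of all windows. RefSeq entries were matched for 6 of 7 members, and a further entry for Synpr and for Sypl marks a second start. Matches are letters in a window and do not show that a factor binds there.

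Per length of exon, the members formed a steep order of levels in the pull-down. Syp averaged 83.6 ± 27.1 CPM per kilobase (SD, n = 8), Syngr3 49.3 ± 3.61 and Syngr1 23.6 ± 0.714. Sypl followed at 4.15 ± 0.809 CPM per kilobase, Synpr at 3.14 ± 1.82, Sypl2 at 0.26 ± 0.183 and Syngr2 at 0.0569 ± 0.0587. Syp, Syngr3 and Syngr1 thus stood above both broadly expressed relatives and the muscle gene, whereas Synpr, also a gene of a neuronal vesicle protein, lay below the broadly expressed Sypl. Neighbours in the order were compared within libraries by an exact sign-flip permutation test, two-sided, with p-values adjusted by the Benjamini-Hochberg method over 6 pairs, and the smallest possible unadjusted p is 0.00781.

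Syngr3 was 2.09-fold above Syngr1 per length, in 8 of 8 libraries (log2 difference 1.06 ± 0.12, SD; adjusted exact p = 0.0117). On counts alone, without length, the order of these 2 gyrins was reversed, since the exons of Syngr3 span 2071 bases and those of Syngr1 4808. Syngr1 was 5.77-fold above Sypl, Synpr 12.8-fold above Sypl2 and Sypl2 5.55-fold above Syngr2, each in 8 of 8 libraries with the same adjusted exact p of 0.0117. Sypl was 1.58-fold above Synpr in 6 of 8 libraries, with an adjusted exact p of 0.0469, and that difference did not pass with the longest transcript as the length (0.26 on the log2 scale, adjusted exact p = 0.453). It also failed when WT 1, WT 2, cKO 2, cKO 3, cKO 4 or the library labelled cKO 5 was left out (adjusted exact p from 0.0781 to 0.0938). Syp and Syngr3 were close in WT, at 55.5 ± 4.69 and 52 ± 3.06 CPM per kilobase, a gap smaller than the spread of Syp, while in cKO Syp lay at 100.5 ± 18.1 and Syngr3 at 47.7 ± 3.11. The cKO level of Syp is what chose the family, so that pair is described without its p.

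**Figure D1:**
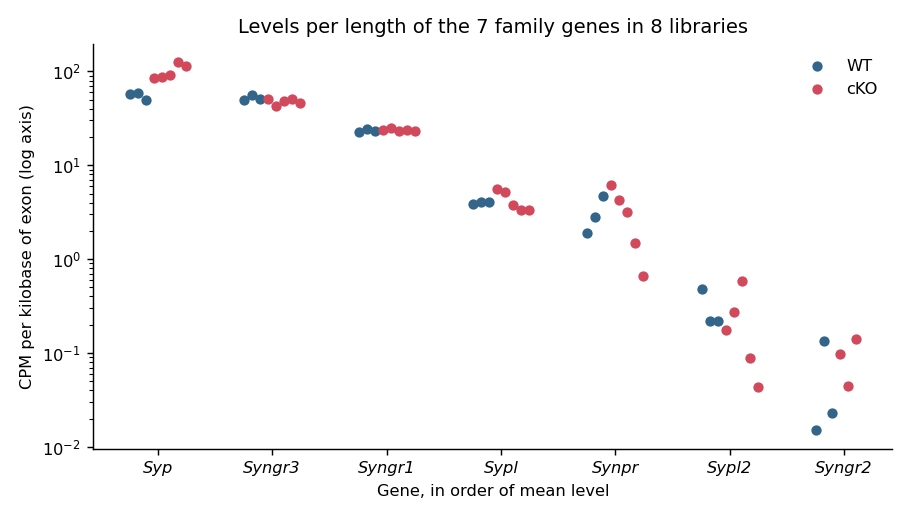
Level of each family gene in CPM per kilobase of exon (vertical log axis) in 8 libraries, 3 WT in blue and 5 cKO in red, with genes in order of mean level. The 2 cKO libraries with 0 counts of Syngr2 cannot be drawn on a log axis; Syp separates by group, and Synpr spreads widely in both groups.

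Syp, the gene of synaptophysin (ENSMUSG00000031144, mm10 chromosome X, 7638471 to 7653256, plus strand), had 301.3, 305.7 and 261.3 CPM in WT 1, 2 and 3. It had 437.9, 458.7, 473.5 and 650.2 CPM in cKO 1, 2, 3 and 4 and 598.1 CPM in the library labelled cKO 5. All cKO libraries lay above all WT libraries, and cKO 4 and the library labelled cKO 5 lay highest. Counts behind these values ran from 11334 to 30109, so counting error is small beside the spread between pools.

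The fitted difference of Syp was 0.86 on the log2 scale (SE 0.14), a fold of 1.81. It was 0.80 without the library labelled cKO 5, 0.77 without cKO 4 and 0.65 (SE 0.09) over the 6 libraries that lack both. Across the 8 fits that leave out 1 library it ranged from 0.77 to 0.91. After removal of each library's own trend on GC content and transcript length it was 0.95 (SE 0.17). The longest Syp transcript has a GC content of 45.4%, and across the 7472 genes with a mean log2 CPM above 4 and known GC content Spearman rho between GC content and the fitted difference was 0.321. That correlation is across genes, which are not independent replicates.

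Syp also took a larger part of the counts of its family. It made up 53.2, 51 and 47% of the summed CPM of the 7 genes in WT 1, 2 and 3, and 57.5, 61, 63, 71.5 and 71.2% in the cKO libraries in order of their numbers. The summed CPM of the family was 573.9 ± 22.4 in WT and 802.7 ± 70.3 in cKO. These sums are of CPM and not per length, and they contain the Syp values that chose the family.

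The locus of Syp holds a gene on the opposite strand that had the same pattern. Gm14703, annotated as antisense (chromosome X, 7651106 to 7657258, minus strand) and named after its values were seen, overlaps the end of Syp and shares 875 exon bases with it, 16.8% of the Syp exon bases. It had 49.1, 57.1 and 47.3 CPM in WT and 68.4, 71.3, 85.1, 103.8 and 103.2 CPM in cKO, and every cKO library lay above every WT library. For each 100 counts of Syp there were 17.7 ± 1.25 counts of Gm14703 in WT and 16.5 ± 1.08 in cKO, a range of 15.6 to 18.7 over 8 libraries. The strand setting of the counting is not given in the sources used here, so RNA of the 2 strands cannot be told apart in these counts.

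The other genes near Syp did not share that separation. Of 13 genes tested within 100 kb of Syp, Syp included, the groups did not overlap in Syp and Gm14703, and they overlapped in the other 11. Their fitted differences ran from -0.64 (SE 0.44) for Foxp3 to 0.71 (SE 0.36) for Plp2, and Prickle3, the gene next to Gm14703, had 0.56 (SE 0.59). These 3 averaged under 7 CPM in each group, as did Ccdc22 at -0.61 (SE 0.36). Among the neighbours with higher levels, Praf2, at 59.2 CPM in WT and 66.2 CPM in cKO, had a fitted log2 difference of 0.16 (SE 0.14), and Gpkow, at 48.4 and 55.9 CPM, had 0.21 (SE 0.15).

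**Figure D2:**
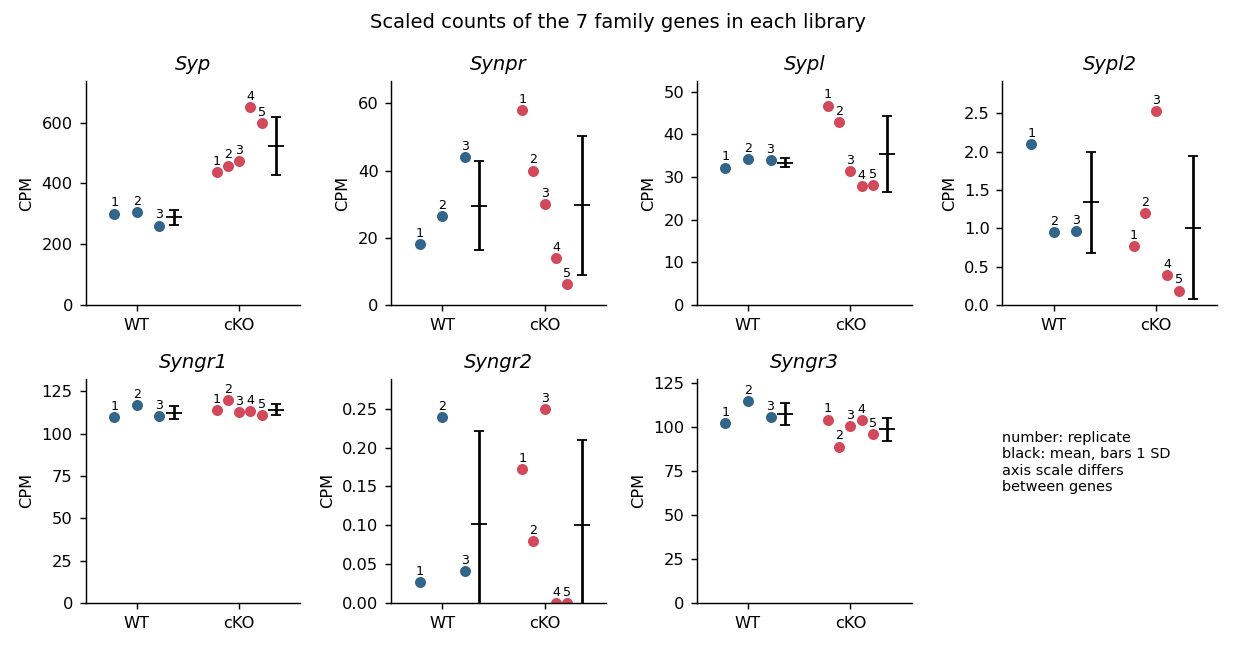
CPM of each family gene (vertical axes from 0, with a scale for each gene) in 3 WT (blue) and 5 cKO (red) libraries, numbered by replicate, with the mean and 1 SD in black. Syp is the member in which the groups do not overlap; Syngr1 lies between 109.9 and 119.8 CPM in all 8 libraries, and the lower error bars of Syngr2 are cut at 0.

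Both neuronal gyrins stayed within narrow ranges. Syngr1 (ENSMUSG00000022415, chromosome 15, 80091334 to 80119501) had 109.9, 116.9 and 110.4 CPM in WT and 114, 119.8, 112.8, 113.2 and 110.7 CPM in cKO. Its coefficient of variation over the 8 libraries was 3.03%, against 32.4% for Syp, and its fitted difference was 0.02 (SE 0.09). That difference turned to -0.14 (SE 0.10) with the correction for GC content and length, so no direction is given for it.

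Syngr3 (ENSMUSG00000007021, chromosome 17, 24685092 to 24689955) had 102.4, 114.7 and 105.9 CPM in WT and 104.3, 88.9, 100.7, 104.1 and 96.2 CPM in cKO. The groups overlapped, with a fitted difference of -0.12 (SE 0.10), from -0.16 to -0.08 with 1 library left out, or -0.22 (SE 0.10) with the same correction. The gyrins thus did not show the difference between groups seen in Syp, although the difference between the genes was not itself tested.

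Synpr, the gene of synaptoporin (ENSMUSG00000056296, chromosome 14, 13284780 to 13616340), had the highest coefficient of variation, 57.8%, among the members that averaged at least 10 CPM. It had 18.1, 26.6 and 44 CPM in WT, 58, 40 and 30 CPM in cKO 1, 2 and 3, 14.1 CPM in cKO 4 and 6.19 CPM in the library labelled cKO 5. The highest library held 9.37 times the level of the lowest, both were labelled cKO, and the groups overlapped throughout. Without the library labelled cKO 5 that ratio was 4.13. The fitted difference was 0.01 (SE 0.56), and it went from -0.39 without cKO 1 to 0.41 without WT 3. It was 0.26 (SE 0.41) without the library labelled cKO 5 and 0.52 (SE 0.30) over 6 libraries without that one and cKO 4, so no direction is given.

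Markers of dentate granule cells were low in the same pools as Synpr. Prox1, which encodes a transcription factor of granule cells, had 43.1, 97 and 177.6 CPM in WT 1, 2 and 3, 166.3, 187.4, 154.9 and 37.9 CPM in cKO 1 to 4 and 46.5 CPM in the library labelled cKO 5. The summed CPM of the 4 granule cell markers (Prox1, Dsp, C1ql2 and Calb1) was 172.7 to 375.7 in WT and 130.4 to 371.9 in cKO, and none of the 4 was at 0 in any library. Calb1 was lower in cKO 3, at 106.6 CPM, than in WT 1, at 114.4 CPM. WT 1, cKO 4 and the library labelled cKO 5 had the lowest values of Synpr, of this marker sum and of Prox1, Dsp and C1ql2. The same 3 libraries were also lowest in the summed microglial markers and in the summed general neuronal markers, a sum made mostly of Snap25. The other general neuronal markers did not follow it. Rbfox3 (285.7 and 358.7 CPM) and Tubb3 (40.9 and 41.6 CPM) were highest in cKO 4 and the library labelled cKO 5. Syt1 and Map2 were lowest in cKO 3. The pyramidal neuron sum was highest in cKO 4 and the library labelled cKO 5. Granule cell markers were thus not alone in following Synpr, since Snap25 and the microglial sum were low in the same libraries. In pooled tissue, fewer cells of a type and less RNA per cell cannot be told apart, and the part of these cells in the Synpr values was not tested.

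**Figure D3:**
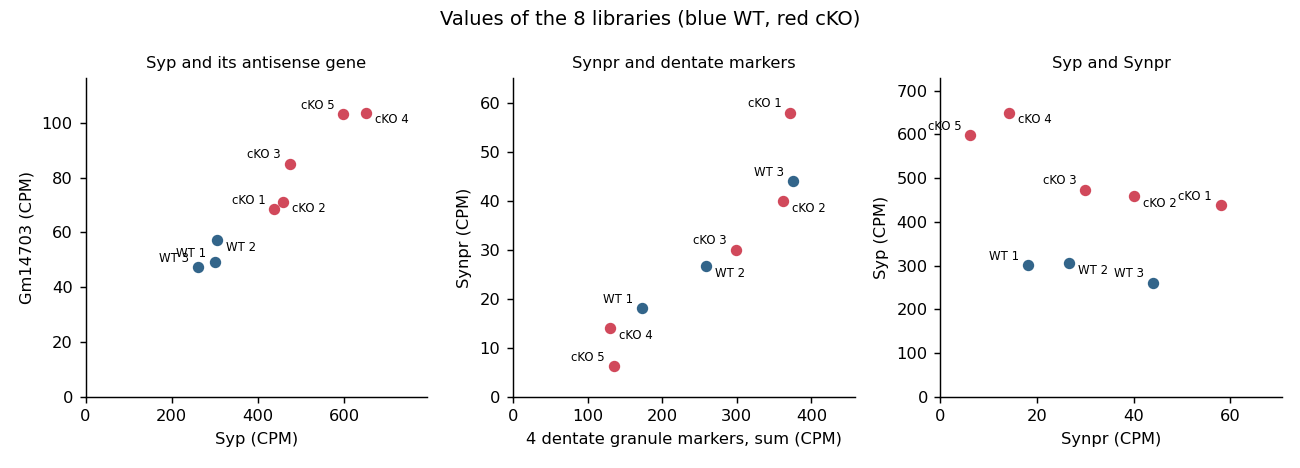
CPM of 8 libraries, WT in blue and cKO in red, for Gm14703 against Syp (left), Synpr against the summed CPM of 4 dentate granule cell markers (middle) and Syp against Synpr (right). Gm14703 follows Syp across both groups, Synpr follows the granule cell markers with no separation by group, and cKO 4 and the library labelled cKO 5 combine the highest Syp with the lowest Synpr.

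Sypl, the gene of pantophysin (ENSMUSG00000020570, chromosome 12, 32953891 to 32979860), had 32.2, 34.2 and 33.9 CPM in WT. It had 46.7, 42.8, 31.4 and 27.8 CPM in cKO 1 to 4 and 28.1 CPM in the library labelled cKO 5. The cKO libraries lay on both sides of the WT range, and the fitted difference was 0.08 (SE 0.19). It turned to -0.04 without cKO 1 and was 0.15 without the library labelled cKO 5, so no direction is given.

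Sypl2, the gene of mitsugumin-29 (ENSMUSG00000027887, chromosome 3, 108211472 to 108226648), had 2.1, 0.956 and 0.969 CPM in WT and 0.766, 1.2, 2.53, 0.389 and 0.19 CPM in cKO. These levels rest on 7 to 81 counts per library. The groups overlapped, and the fitted difference was -0.41 (SE 0.75). It moved to -1.06 without cKO 3, to -0.15 without the library labelled cKO 5 and to 0.07 without WT 1, so single libraries set its size and sign.

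Syngr2, the gene of cellugyrin (ENSMUSG00000048277, chromosome 11, 117809668 to 117814283), was near the limit of detection, with 37 counts over all 8 libraries, and was not tested. WT 2 had 12 counts, cKO 1 had 9 and cKO 3 had 8. cKO 4 and the library labelled cKO 5 had 0, which allows up to 0.0648 and 0.0815 CPM (3 counts, counting error only). Gm20708, a gene model that starts at the same base and shares 136 exon bases with Syngr2 (7.66% of its exon bases), was at 0.0815 to 1.47 CPM and can take reads from it. Syngr4, the remaining gyrin gene and no member here, had 10 counts in all libraries together.

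Of the 6 members tested by edgeR's quasi-likelihood test with Benjamini-Hochberg adjustment over 17654 genes, 0 were called higher and 0 lower in cKO at an adjusted p under 0.05, as were 0% and 0% of all genes. With no adjustment, 886 genes (5.02%) passed 0.05 with higher and 654 (3.7%) with lower levels in cKO. DESeq2 called 0.544% of 12510 genes higher and 0.32% lower, and limma-voom called 0.017% higher and 0.00566% lower. Of the 6 members, 1 had groups without overlap, Syp, which was higher in cKO, beside 3.38% of all tested genes that were higher without overlap and 3.82% that were lower. The fitted differences of 4 of the 6 lay above 0, as did 53% of all genes, and their median was 0.01 against 0.02 over all genes. The family was chosen on this contrast, so nothing is read from these counts.

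Other components of synaptic vesicles were counted on lists chosen for their place in the vesicle cycle. Earlier results of these data were known when the lists were chosen, so their counts and p-values are not independent of that choice. Of 22 other integral vesicle proteins tested, edgeR called 0 higher and 0 lower, and the median fitted difference was 0.09. An unadjusted edgeR p under 0.05 was found for 5 that were higher and 1 that was lower, beside 5.02% and 3.7% of all genes. Slc17a7, which encodes the vesicular glutamate transporter VGLUT1, had 333, 364.8 and 334.9 CPM in WT and 439.2 to 547.9 CPM in cKO, without overlap. Its fitted difference was 0.49 (SE 0.10, edgeR adjusted p = 0.47). Atp6v0c, the proteolipid subunit of the vesicle proton pump, was at 460.2 ± 10.7 CPM in WT and 546.8 ± 28.5 in cKO, a fitted difference of 0.25 (SE 0.08, edgeR adjusted p = 0.499).

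Slc6a17, a vesicular amino acid transporter, overlapped between groups with a fitted difference of 0.24 (SE 0.10, edgeR adjusted p = 0.548), which was 0.05 (SE 0.09) with the correction for GC content and length. Syt2, a calcium sensor of fast synapses, went the other way, at 7.12 ± 2.88 CPM in WT and 2.6 ± 0.771 in cKO, without overlap. Its fitted difference was -1.45 (SE 0.33, edgeR adjusted p = 0.48). DESeq2 called Slc17a7 higher (adjusted p = 0.00658) and Syt2 lower (adjusted p = 0.0179), while limma-voom called neither (adjusted p = 0.072 and 0.17). With the correction for GC content and length, Slc17a7 had 0.36 (SE 0.08) and Syt2 -1.54 (SE 0.33). The fitted differences of these 22 genes ran from -1.45 to 0.49. That the difference of Syp lay above them supports nothing, since Syp was chosen on this contrast.

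Of 17 peripheral vesicle proteins, edgeR called 0 in either direction, 0 had an unadjusted p under 0.05, DESeq2 called 0 of the 16 to which it gave an adjusted p, and the median was 0.02. Rab3a, the vesicle GTPase, was at 162.9 ± 2.37 CPM in WT and 193 ± 29.6 in cKO, with overlap and a fitted difference of 0.24 (SE 0.13). Syn3, a synapsin gene, and Sncb, the gene of beta-synuclein, had fitted differences of 0.44 (SE 0.29) and 0.39 (SE 0.25), both with overlap. Without cKO 4 and the library labelled cKO 5 these differences were 0.09 for Rab3a, 0.02 for Syn3 and 0.22 for Sncb. Leaving out the library labelled cKO 5 alone gave 0.25 for Syn3, and leaving out WT 2 gave 0.24. Cplx3, a complexin gene, had -0.90 (SE 0.49), at 2.68 CPM in WT and 1.44 CPM in cKO. Its groups barely failed to overlap, with 2.08 CPM the lowest WT value and 2.07 CPM the highest cKO value.

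Of 21 genes that serve the retrieval of vesicle membrane, a step in which synaptophysin takes part, edgeR called 0 in either direction, DESeq2 called 0 as well, and the median was 0.01. An unadjusted edgeR p under 0.05 was found for 2 with a higher and 1 with a lower level, beside the same 5.02% and 3.7% of all genes. Ap2a1, a subunit of the clathrin adaptor AP-2, was at 13.1 ± 0.734 CPM in WT and 18.2 ± 2.15 in cKO, without overlap (0.47, SE 0.16, edgeR adjusted p = 0.499, or 0.28 with the correction for GC content and length). Clta, a clathrin light chain, was at 146.8 ± 2.36 and 125.8 ± 10.9 CPM, without overlap and lower in cKO (-0.22, SE 0.10, edgeR adjusted p = 0.562). Ston2, the gene of the endocytic adaptor stonin 2, and Bin1, an amphiphysin, had fitted differences of 0.83 (SE 0.35) and 0.32 (SE 0.18), both with overlap, and that of Bin1 was 0.08 without cKO 4 and the library labelled cKO 5.

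Outside the vesicle, 11 of 13 other genes with a MARVEL domain were tested, and edgeR called 0 in either direction, with 0 at an unadjusted p under 0.05 and a median of 0.20. DESeq2 gave an adjusted p to 4 of the 11 and called 0 of those. Plp2, also a neighbour of Syp, had a fitted difference of 0.71 (SE 0.36) at 3.8 CPM in WT and 6.21 CPM in cKO, with overlap. Mal, a myelin gene, had 0.69 (SE 0.51), Marveld1 0.74 (SE 0.54) and Cmtm8 -1.71 (SE 0.95), all under 4 CPM on average in each group and all with overlap. Single libraries set the size of these differences: without the library labelled cKO 5 Plp2 had 0.44 and Mal 0.27, without cKO 4 Marveld1 had 0.39, and without cKO 2 Cmtm8 had -2.96.

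**Figure D4:**
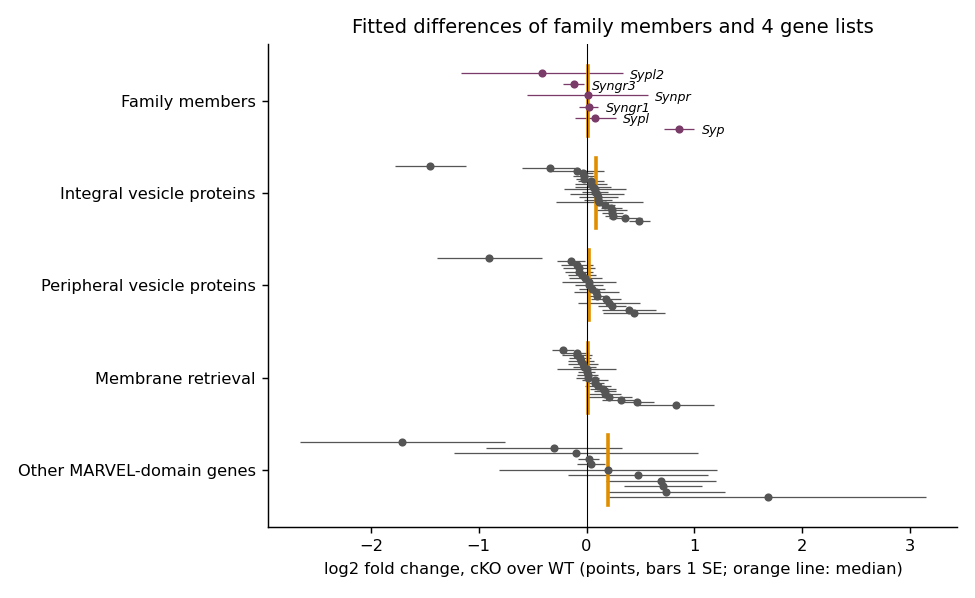
Fitted log2 fold changes of cKO over WT (horizontal axis, points with bars of 1 SE) for the 6 tested family members and for 4 gene lists, with the median of each in orange. Syp stands at 0.86 while the other family members lie between -0.41 and 0.08, and the medians of the 3 vesicle lists lie between 0.01 and 0.09.

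The genes whose levels ran most nearly in parallel with Syp were Nrsn2, Adam11, Slc17a7, Unc5a and Adgrb1. Their Pearson r with Syp in log2 CPM over 8 libraries was 0.982, 0.976, 0.974, 0.969 and 0.968, the highest of 8167 genes with a mean of at least 10 CPM, predicted genes left out. After the group means were removed r was 0.85 to 0.93, and over the 6 libraries that remain when those 2 highest in Syp are left out it was 0.96 to 0.98. The fitted differences of these genes were 1.5, 0.51, 0.49, 0.68 and 0.69. All share the libraries and the group difference with Syp, so r describes these 8 libraries only.

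The genes most like Synpr were Lrrtm4, Cd200, Gad1, Cept1 and Tpst1, with r of 0.99, 0.983, 0.978, 0.977 and 0.976 on the same measure. Over the 6 libraries r was 0.90 to 0.97, and the fitted differences of these genes were between -0.10 and 0.04. Gad1, which encodes an enzyme of GABA synthesis, had 24.5, 33.5 and 44.7 CPM in WT 1, 2 and 3 and 15.3 to 50.2 CPM in cKO, lowest in the library labelled cKO 5. Syp also varied between pools within the groups, against Synpr and Sypl: with group means removed, its r was -0.87 with Synpr and -0.82 with Sypl over the 8 libraries. These values share libraries and scaling, and cKO 4 and the library labelled cKO 5 lie at the ends of both.

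The marker sums of some cell classes, pyramidal neurons among them, also lay higher in cKO without overlap, while edgeR called 0 of their markers. The summed CPM of 8 oligodendrocyte markers was 68.9 to 72.3 in WT and 80.7 to 103.5 in cKO, with 8 of 8 fitted differences above 0 and no marker at 0 in any library. The 4 pyramidal neuron markers, Slc17a7 among them, summed to 7053 to 7522 CPM in WT and 7602 to 11556 CPM in cKO, with 3 of 4 above 0 and none at 0, and the highest cKO sum was 9307 CPM without the library labelled cKO 5. The 2 precursor markers summed to 2.07 to 3.01 and 3.31 to 8.01 CPM, with both fitted differences above 0 and none at 0. Taken singly, both overlapped between groups. Cspg4 was at 1.53 to 2.8 CPM in WT and 2.21 to 7.96 CPM in cKO, and Pdgfra at 0.206 to 0.538 and 0.0543 to 1.15 CPM. The lowest Pdgfra value, in the library labelled cKO 5, lay under the 0.0815 CPM that 3 counts make there. The part of these cells in the Syp difference was not tested.

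The sums of the remaining lists overlapped between groups. They were 19117 to 23512 CPM in WT and 16330 to 21565 CPM in cKO for 5 general neuronal markers, and 707.8 to 903.2 and 838.5 to 1079 CPM for 7 markers of CCK and GABAergic interneurons. For 5 astrocyte markers they were 6.35 to 9.48 and 4.18 to 13.2 CPM, for 5 microglial markers 3.03 to 4.82 and 1.93 to 5.08 CPM, for 3 vessel markers 0.585 to 0.677 and 0.384 to 1.8 CPM, and for 3 choroid plexus markers 27.5 to 37.5 and 25.3 to 73.3 CPM. Aldh1l1, Tmem119, C1qa, Cldn5 and Folr1 were at 0 in at least 1 library. Most of the general neuronal sum was Snap25, and most of the interneuron sum was Cck. Cck was highest in cKO 4 and the library labelled cKO 5, at 837.3 and 690.8 CPM. Gad2 was lowest in these libraries, at 49.6 and 55.7 CPM, as were Gad1 and Slc17a8. Slc32a1, Cnr1 and Vip did not share that order.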

How the data were processed

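The deposited table holds raw counts per Ensembl gene, which the authors made with STAR 2.5.3a and HTSeq on mm10, per the submitters' processing notes. The annotation release, strand setting and filters are not given in the sources used here. Symbols, exon lengths and GC content came from GENCODE vM21 (37693 of 39017 genes matched), which may differ from the models used for counting, and promoters from RefSeq.

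Counts were fitted in R 4.3.3 with edgeR 4.0.16 (TMM scaling, filterByExpr, robust quasi-likelihood test, two-sided, Benjamini-Hochberg over 17654 genes, threshold 0.05). CPM use TMM-scaled totals, SE is the fitted log2 difference divided by the square root of F, log2 CPM a prior count of 2, and level comparisons a prior count of 0.5. Levels per kilobase use the union of exons. On simulated counts the test recovered 6, 26, 36 and 47 of 50 genes changed 1.5-, 2-, 3- and 4-fold, with 2 false calls among 17268 genes.

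Alternatives were other scalings and filters, DESeq2 1.42.0, limma 3.58.1 (voom with quality weights), each library left out, 6 libraries with shared numbers, with and without that number as a block, a GC and length correction and other lengths. Named genes are the members, Syngr4, Hltf, Cck, up to 4 genes per vesicle list by smallest p, and the 5 most like Syp and Synpr. Overlapping genes, neighbours, sex-linked genes and cell markers are named beside these as context, and which of them to name was chosen after their values were seen. Members and lists were chosen with earlier results of these data known. Figures used Python 3.11.15 and matplotlib 3.10.9.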

Additional observations from a re-analysis of the deposited data

Results flagged for a closer look

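The 5 cKO values of 12 measures (among them the 7 members and Hltf) were searched for a single distant value. Of these 1 was found. Chance flags about 1 in 20 of the measures searched, so 1 flag among 12 can arise by chance. Hltf lay at 11.4 CPM in the library labelled cKO 5 while cKO 1 to 4 had 2.83 to 5.1 CPM, so 0.737 of the whole range separated it from its nearest neighbour. No family member had such a value in the cKO libraries.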

How the results depend on the processing

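Of 114 comparisons of the fitted differences of the 6 tested members with an alternative, 111 moved by less than the spread between replicates. The exceptions were Syngr1 at -0.14 and Syngr3 at -0.22 with the GC and length correction, and Syngr1 at -0.07 with that correction and the replicate block over 6 libraries. The lengths free of other genes were added after seeing the data. Genes called higher numbered 1 without scaling factors, 2 with every counted gene kept, 2 when 3 libraries had to reach 1 CPM, 2 at an adjusted p under 0.1, 5 over 6 libraries without the block, 1 there with block and correction, 68 by DESeq2 and 3 by limma-voom, against 0 by edgeR. Genes called lower numbered 5 over 6 libraries without the block, 40 by DESeq2 and 1 by limma-voom. The count of members called was 1, Syp, over 6 libraries without the block, by DESeq2 and by limma-voom, and 0 otherwise, which supports nothing since Syp was chosen on this contrast. DESeq2 called 1 integral vesicle gene higher and 1 lower. Over 6 libraries, a block for the replicate number gave 0.65 for Syp, as without it, and 0 genes called, and deviations of same-numbered libraries had r of -0.21, 0.0576 and 0.0796, which does not show pairing. Without length, the log2 difference of Syngr3 over Syngr1 was -0.15. In WT alone, Syp over Syngr3 was 0.09. Sypl over Synpr did not pass with the longest transcript (0.26) or without length (0.48), and with 1 library left out it ranged from 0.41 to 0.78.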
